A study of Mus musculus with 93 samples.

Results

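The cardiac thin filament was followed here through 10 genes given as a list of names: Actc1, Acta1, Tpm1, Tnnt2, Tnnt1, Tnnc1, Tnni1, Tnni3, Tmod1 and Lmod2. All 10 of the 10 were found among the 24514 gene symbols of the count table. RNA was sequenced from 93 libraries, each made from 10 FACS-isolated mouse cells. Every group carried the same 3 alleles, Hcn4-GFP, Tbx1-Cre and the Ai9 reporter. GFP reports Hcn4, a marker of the first heart field (FHF) and of its early myocardium. RFP is switched on for good once Tbx1-Cre has acted on Ai9, so RFP+ cells are progeny of cells that expressed Tbx1, a marker of the second heart field (SHF), and need not express it still. The embryo groups held 5 GFP+ and 4 RFP+ libraries, from embryos that the titles place at E8.5 and the protocol at E7.75. The spheroid groups held 38 GFP+ and 46 RFP+ libraries, from 3D cultures of an embryonic stem cell (ESC) line with those alleles at day 5.5 of differentiation. Activin A, Bmp4 and Wnt ligands are listed as inducers, and the labels do not say which of them a given well received. Wells are not assigned to embryos or to separate differentiations, so n counts wells and the p-values measure the spread between wells.

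In striated muscle the thin filament is a polymer of actin with tropomyosin lying along it. Troponin sits on tropomyosin at regular steps: its T subunit binds tropomyosin, its C subunit binds calcium, and its I subunit holds the filament off until calcium arrives. Tropomodulin caps the end that points to the middle of the sarcomere, and leiomodin lets that end grow. Several subunits come in forms from separate genes: Actc1 encodes cardiac and Acta1 skeletal alpha-actin, Tnnt2 cardiac and Tnnt1 slow skeletal troponin T, and Tnni3 cardiac and Tnni1 slow skeletal troponin I. The early heart is known to use skeletal forms beside the cardiac ones, with Tnni1 giving way to Tnni3 as the heart matures.

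The promoters of the actin pair are shown because its balance is followed below, and those of 2 troponin genes to set an element of the Acta1 promoter beside its match in other members. Each window runs from 250 bases before to 50 bases after the RefSeq start on GRCm38.p6, the assembly of the mm10 build that the study used. The capitals mark, in the actin genes, a CArG box, the sequence bound by serum response factor, and in Acta1, Tnnt2 and Tnnc1 an M-CAT element, CATTCC on either strand, the sequence bound by TEAD factors. The windows lie at chr2:114052826-114053125, minus strand (Actc1), at chr8:123894726-123895025, minus strand (Acta1), at chr1:135836084-135836383, plus strand (Tnnt2) and at chr14:31208062-31208361, plus strand (Tnnc1).
Actc1: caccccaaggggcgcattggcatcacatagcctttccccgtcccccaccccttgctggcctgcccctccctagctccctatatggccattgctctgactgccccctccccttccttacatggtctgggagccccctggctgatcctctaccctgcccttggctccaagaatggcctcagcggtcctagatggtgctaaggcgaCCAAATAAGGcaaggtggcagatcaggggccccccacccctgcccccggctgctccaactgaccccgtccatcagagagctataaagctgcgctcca
Acta1: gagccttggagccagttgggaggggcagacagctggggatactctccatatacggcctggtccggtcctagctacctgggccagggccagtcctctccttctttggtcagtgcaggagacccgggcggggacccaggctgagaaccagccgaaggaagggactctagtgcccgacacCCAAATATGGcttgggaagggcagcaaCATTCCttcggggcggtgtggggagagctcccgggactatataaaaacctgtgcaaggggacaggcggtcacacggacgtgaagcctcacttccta
Tnnt2: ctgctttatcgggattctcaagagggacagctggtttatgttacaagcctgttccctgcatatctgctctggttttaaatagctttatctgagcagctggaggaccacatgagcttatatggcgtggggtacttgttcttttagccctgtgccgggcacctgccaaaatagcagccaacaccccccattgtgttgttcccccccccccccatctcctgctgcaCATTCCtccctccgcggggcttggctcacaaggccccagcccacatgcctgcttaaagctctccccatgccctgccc
Tnnc1: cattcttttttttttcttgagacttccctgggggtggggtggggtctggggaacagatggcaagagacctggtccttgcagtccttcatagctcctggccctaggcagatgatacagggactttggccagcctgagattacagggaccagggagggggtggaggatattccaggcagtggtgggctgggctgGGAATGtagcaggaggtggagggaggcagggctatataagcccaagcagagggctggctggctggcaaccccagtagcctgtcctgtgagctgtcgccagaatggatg
A CArG box was found in the windows of 2 of the 10 genes, Actc1 and Acta1, and in 1.63% of the 32851 mouse promoters of the same length. The M-CAT element was found in 5 of the 10, in Acta1, Tnnt2, Tnnc1, Tpm1 and Tmod1, against 14.7% of all promoters. Tnnt2 and Tnni1 had 2 windows each, and a gene was counted if either matched, whereas the shares of all promoters count single windows. The second Tnnt2 window, not shown, had no M-CAT element. TATAAA was found in 3 of the 10 against 13.6%, a GATA site (GATAA or GATAG with A or T before it) in 2 of the 10 against 29.8%, and the MEF2 box in 0 of the 10 against 3.19%. All motifs were sought on both strands, and in Acta1, the gene with both, the CArG box and the M-CAT element did not overlap. These matches describe letters in a window and were not tested as binding sites. In GENCODE M21 on GRCm38, Actc1 lies at chr2:114047282-114053548, Acta1 at chr8:123891769-123894751, Tpm1 at chr9:67022590-67049406, Tnnc1 at chr14:31208312-31211729, Tmod1 at chr4:46038935-46116032 and Lmod2 at chr6:24597762-24605414. Tnnt2 at chr1:135836354-135852260 and Tnni1 at chr1:135779434-135810989 are 25365 bases apart, and Tnnt1 at chr7:4504570-4516382 and Tnni3 at chr7:4518305-4524229 only 1923 bases.

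Between 712732 and 2525460 reads per embryo GFP+ library were counted on genes, and between 1246546 and 1479957 per embryo RFP+ library. Spheroid totals ran from 6288 to 4371849 in GFP+ and from 445071 to 5658882 in RFP+ libraries. Well C9, the source of that lowest GFP+ total, gave a read of Tpm1 and of no other member. Embryo GFP+ libraries held fewer detected genes (6189 to 8302) than embryo RFP+ libraries (10263 to 13052). Spheroid RFP+ wells filled plate columns 1 to 6 and spheroid GFP+ wells columns 7 to 11, which confounds plate column with population. RFP+ libraries of neighbouring wells in columns 3 and 4 were nearly the same in 7 plate rows, with r of 0.976 to 0.994 between them. These pairs differed by more than sampling noise (chi-square per gene 1.37 to 2.39, against 2.98 to 12.1 in 103 other pairs) and were kept as separate libraries. That difference cannot show whether the wells of a pair held different cells, which the labels do not say and which was not tested. Summing each pair changed no count of called members, and it moved the spheroid tests of the Tnni3 and Tnnt1 shares below past their threshold. Hcn4 reads were present in 5 of 5 embryo and 37 of 38 spheroid GFP+ libraries, with medians of 7.02 and 7.48 CPM (counts per 1e+06 reads), and in 1 of 4 and 18 of 46 RFP+ libraries, with medians of 0. Tbx1 was read in 3 of 4 embryo and 41 of 46 spheroid RFP+ libraries, in 0 of 5 embryo GFP+ libraries and in 2 of 38 spheroid GFP+ libraries.

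The members together took 1.66% to 3.84% of all counted reads in the embryo GFP+ libraries. In embryo RFP+ libraries this share was 0.155% to 0.204%, in spheroid GFP+ libraries 0.0159% to 0.153%, and in spheroid RFP+ libraries 0.0257% to 0.0539%. The embryo GFP+ cells thus lay above every other library of the series in their summed thin filament reads. The summed levels of the embryo RFP+ cells, at 1553 to 2042 CPM, lay above those of the spheroid GFP+ cells, at 159 to 1531 CPM. The lowest spheroid GFP+ share and sum are those of well C9, and in the other GFP+ wells Tpm1 alone was at 303 CPM or more. Because each library pools 10 cells, fewer cells that express a gene and less RNA per cell cannot be told apart in these values.

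**Figure D1:**
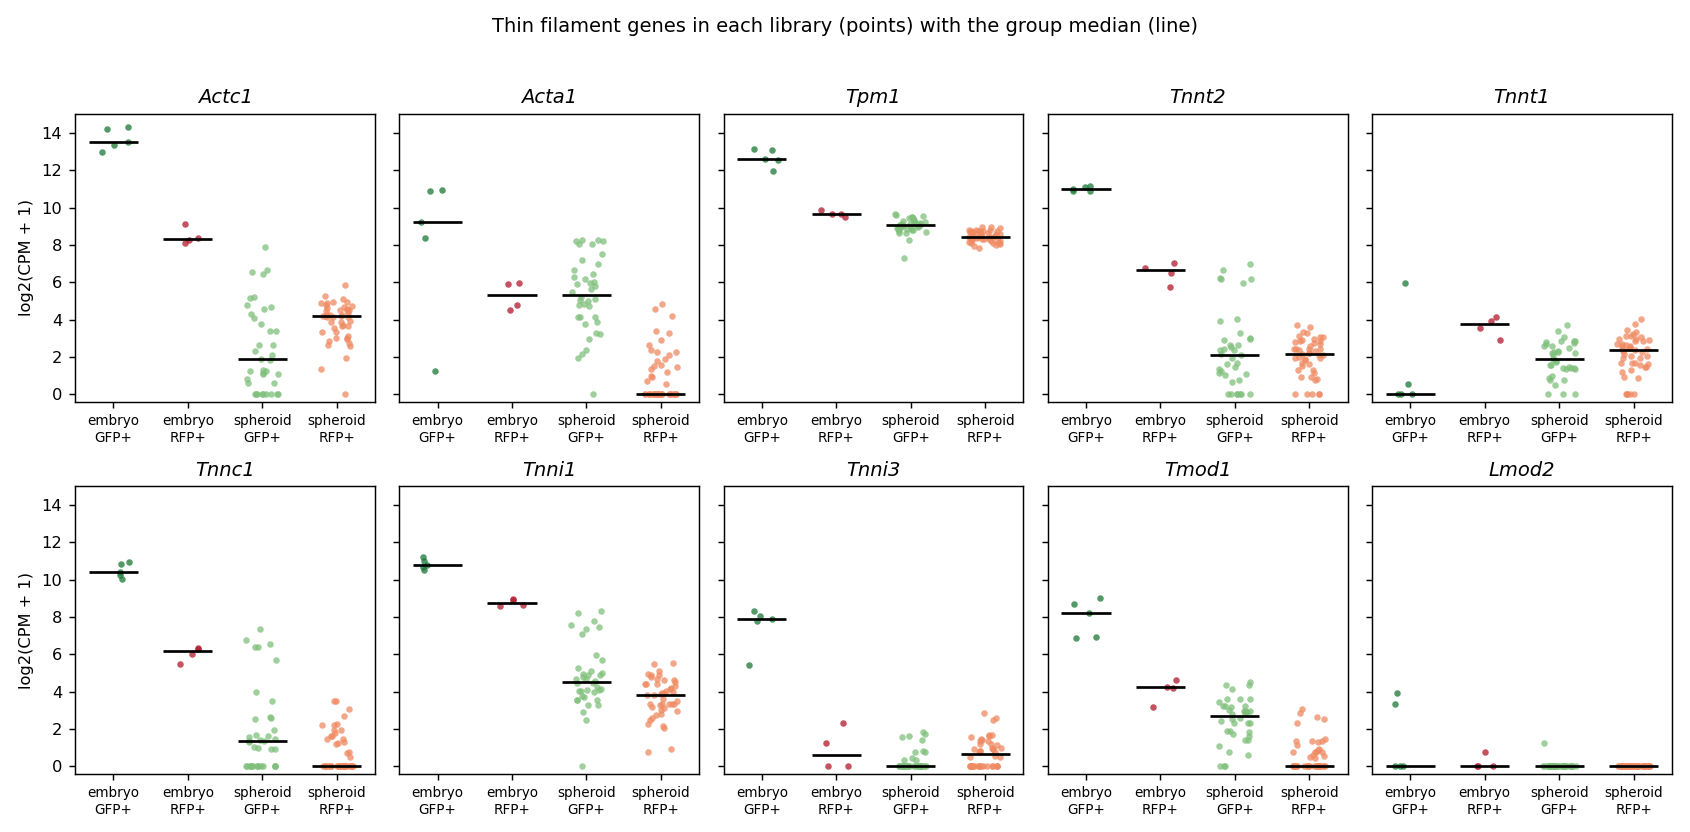
Level of each thin filament gene in every library, as log2(CPM + 1), by group (embryo GFP+, n = 5; embryo RFP+, n = 4; spheroid GFP+, n = 38; spheroid RFP+, n = 46); points are libraries and lines are group medians. Actc1, Tpm1, Tnnt2, Tnnc1, Tnni1, Tnni3 and Tmod1 of the embryo GFP+ libraries lie above all embryo RFP+ libraries, Acta1 has a single low embryo GFP+ library, and Tpm1 is the only gene with reads in every library.

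GFP+ and RFP+ cells of the embryo were compared first, to ask how far the thin filament programme separated the heart fields in vivo. Actc1, Acta1, Tpm1, Tnnt2, Tnnc1, Tnni1, Tnni3 and Tmod1 were higher in GFP+ cells. Tnnt1 was not called and Lmod2 had too few reads to be tested. Of the 8503 genes tested, 3.88% were called higher in GFP+ cells (edgeR quasi-likelihood test, Benjamini-Hochberg adjusted p under 0.1). The members called were 8 of the 9 that passed the filter on low counts, with a median log2 fold change of 4.45 over those 9, where the median over all genes was -0.09. Here the filter asked for enough reads in as many libraries as the smaller group holds, so a gene could pass through a single group. Tnni3, with at most 4.01 CPM in RFP+ libraries, entered this count through the GFP+ libraries only. Every GFP+ library lay above every RFP+ library for 7 of the 10 members, and for 3.73% of all genes tested.

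Actc1, the main actin of the heart, had the largest share of these reads. In the GFP+ libraries of wells A12 to E12 it was at 10614, 20303, 8121, 11764 and 19238 CPM. In the RFP+ libraries of wells F12, G11, G12 and H11 it was at 556, 335, 270 and 303 CPM. The groups did not overlap, and Actc1 was higher in GFP+ cells by 5.29 ± 0.29 on the log2 scale (SE, adjusted p = 5.3e-06). Acta1, the skeletal actin, spread far more among the GFP+ libraries, at 590, 1871, 1.40, 327 and 1957 CPM in the same order. A single Acta1 read stood behind the value of well C12, while the other 4 libraries had 578 reads or more. RFP+ libraries had Acta1 at 58.4, 62.1, 26.5 and 21.6 CPM, so the groups overlapped through well C12. The fitted difference of Acta1 was 4.55 ± 0.98 (log2, SE, adjusted p = 0.027), and without the RFP+ library H11 its adjusted p was 0.110. A permutation test of its log2(CPM + 1) gave a difference of 2.84 (exact, two-sided, p = 0.214). Well C12 was also the lowest of the GFP+ libraries for Actc1, Tpm1, Tnnc1, Tnni1 and Tnni3, which all remained above the RFP+ libraries there.

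Tpm1, alpha-tropomyosin, was at 6089, 9109, 3924, 6238 and 8630 CPM in the GFP+ libraries A12 to E12. RFP+ libraries F12, G11, G12 and H11 had 808, 806, 724 and 943 CPM. All GFP+ values lay above all RFP+ values, with a difference of 3.08 ± 0.23 (log2, SE, adjusted p = 2.1e-05).

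Tnnt2, cardiac troponin T and a common cardiomyocyte marker, was the steadiest member among the GFP+ libraries. It was at 2059, 2192, 1926, 2325 and 1878 CPM, a mean of 2076 ± 185 CPM (SD, n = 5). In the RFP+ libraries it was at 109, 90.8, 52.1 and 131 CPM. Tnnt2 was higher in GFP+ cells by 4.45 ± 0.24 (log2, SE, adjusted p = 5.3e-06), with no overlap. For Tnnt1, slow skeletal troponin T, a single GFP+ library held nearly all reads. Reads of Tnnt1 were absent from GFP+ libraries A12, C12 and E12, D12 had 1 read, and B12 had 154 reads or 61.0 CPM. In RFP+ cells every library had Tnnt1, at 6.57, 14.3, 16.8 and 10.8 CPM. Tnnt1 was not called (log2 difference 0.12 ± 1.82, SE, adjusted p = 0.994), its log2(CPM + 1) was lower in GFP+ cells by a difference of -2.35 (exact permutation test, p = 0.119), and its GFP+ mean fell from 12.3 to 0.110 CPM when well B12 was left out. Tnnc1, the calcium-binding troponin C of heart and slow muscle, was at 1238, 1958, 1034, 1338 and 1820 CPM in GFP+ and at 79.5, 43.01, 63.4 and 78.4 CPM in RFP+ libraries. The difference of Tnnc1 was 4.51 ± 0.27 (log2, SE, adjusted p = 7.3e-06), without overlap.

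Tnni1, slow skeletal troponin I, was the member with the smallest called difference in the embryo. Its GFP+ libraries had 1778, 2342, 1445, 1641 and 2062 CPM and its RFP+ libraries 401, 497, 379 and 475 CPM. The groups did not overlap and differed by 2.10 ± 0.21 (log2, SE, adjusted p = 8.8e-05). Tnni3, the cardiac troponin I of the mature heart, showed the largest difference of the members tested. It was at 223, 320, 42.1, 268 and 234 CPM in GFP+ libraries. Among RFP+ libraries, F12 and G11 had no Tnni3 read, G12 had 5 and H11 had 2. The fitted difference of Tnni3 was 7.31 ± 0.99 (log2, SE, adjusted p = 0.0022), and it rests on 7 RFP+ reads in all. Within the embryo RFP+ cells, then, troponin I came from Tnni1 nearly alone, while GFP+ cells held both forms.

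Tmod1, tropomodulin, was at 411, 292, 119, 115 and 517 CPM in GFP+ and at 23.3, 17.8, 17.6 and 8.11 CPM in RFP+ libraries. It was higher in GFP+ cells by 4.15 ± 0.56 (log2, SE, adjusted p = 0.0017), without overlap. Of the 36-base stretches of Tmod1 transcripts, 31.8% also occur in transcripts of Tstd2, and how such reads were counted is not given in the sources used here. The other members shared at most 4.23% of theirs with any gene. Lmod2, leiomodin, had 21 reads in well D12 and 13 in well E12 and none in the other GFP+ libraries, against 1 read in the RFP+ group, a difference of 1.26 on the log2(CPM + 1) scale (exact permutation test, two-sided, p = 0.444). With 5 against 4 libraries this test cannot go below 0.00794, the value it gave for each of the 7 members without overlap.

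**Figure D2:**
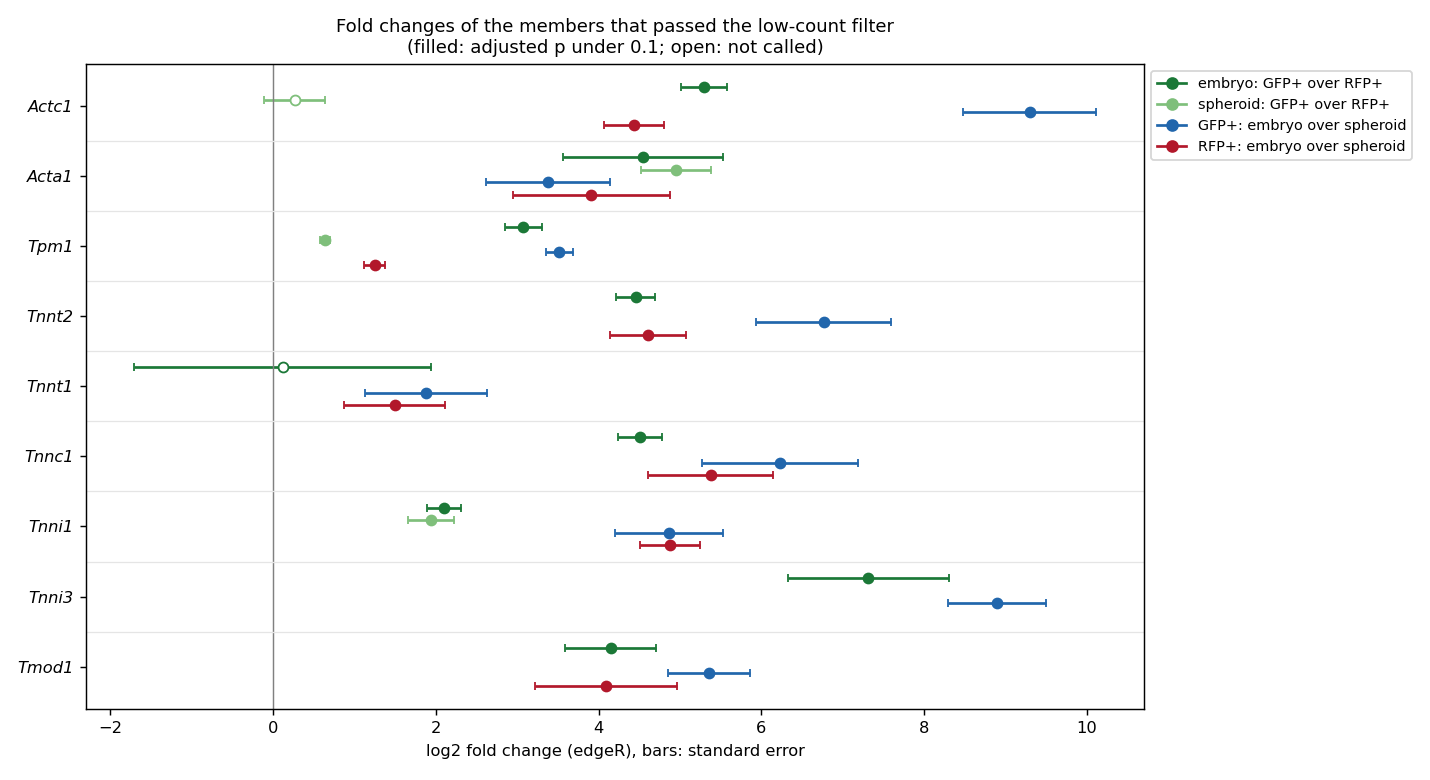
Log2 fold changes (x axis, edgeR) with standard errors of the members that passed the low-count filter, in each of the 4 comparisons; filled points are called at an adjusted p under 0.1. Actc1 is near 0 between spheroid GFP+ and RFP+ cells and at 5.29 between the same populations of the embryo, while Acta1 is at 4.55 in the embryo and 4.95 in spheroids and Tnni1 at 2.10 and 1.94.

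Levels were compared between genes only after division by the length of all annotated exons of a gene, 1041 bases for Tnnc1 and up to 7752 bases for Tnnt2. A transcript can be shorter than that, which lowers the per-kb value of a gene with many alternative exons. In embryo GFP+ cells Actc1 led with 8658 ± 3360 CPM per kb (SD, n = 5), followed by Tnnc1 at 1419 ± 379, Tpm1 at 1048 ± 325, Acta1 at 618 ± 590, Tnni1 at 515 ± 98.2 and Tnnt2 at 268 ± 23.9 CPM per kb. Tnnc1 and Tpm1 lay within the spread of each other, as did Acta1 and Tnni1. Tnni3 at 105 ± 50.9 and Tmod1 at 73.8 ± 45.0 CPM per kb overlapped as well, and Tnnt1 and Lmod2 had medians of 0. In embryo RFP+ cells Actc1 led again, at 226 ± 80.0 CPM per kb (SD, n = 4), with Tpm1 at 126 ± 13.9 and Tnni1 at 122 ± 15.9 indistinguishable after it. Tnnt2 was there at 12.3 ± 4.31 and Tnnt1 at 5.51 ± 2.03 CPM per kb. Spheroid cells had another order. Tpm1 came first in both populations, at 83.5 ± 20.5 (SD, n = 38) and 55.1 ± 10.3 CPM per kb (SD, n = 46). Behind it stood Acta1 in GFP+ cells, at 54.3 ± 64.2 with a median of 25.7, and Actc1 in RFP+ cells, at 10.6 ± 6.60 with a median of 10.5 CPM per kb.

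**Figure D3:**
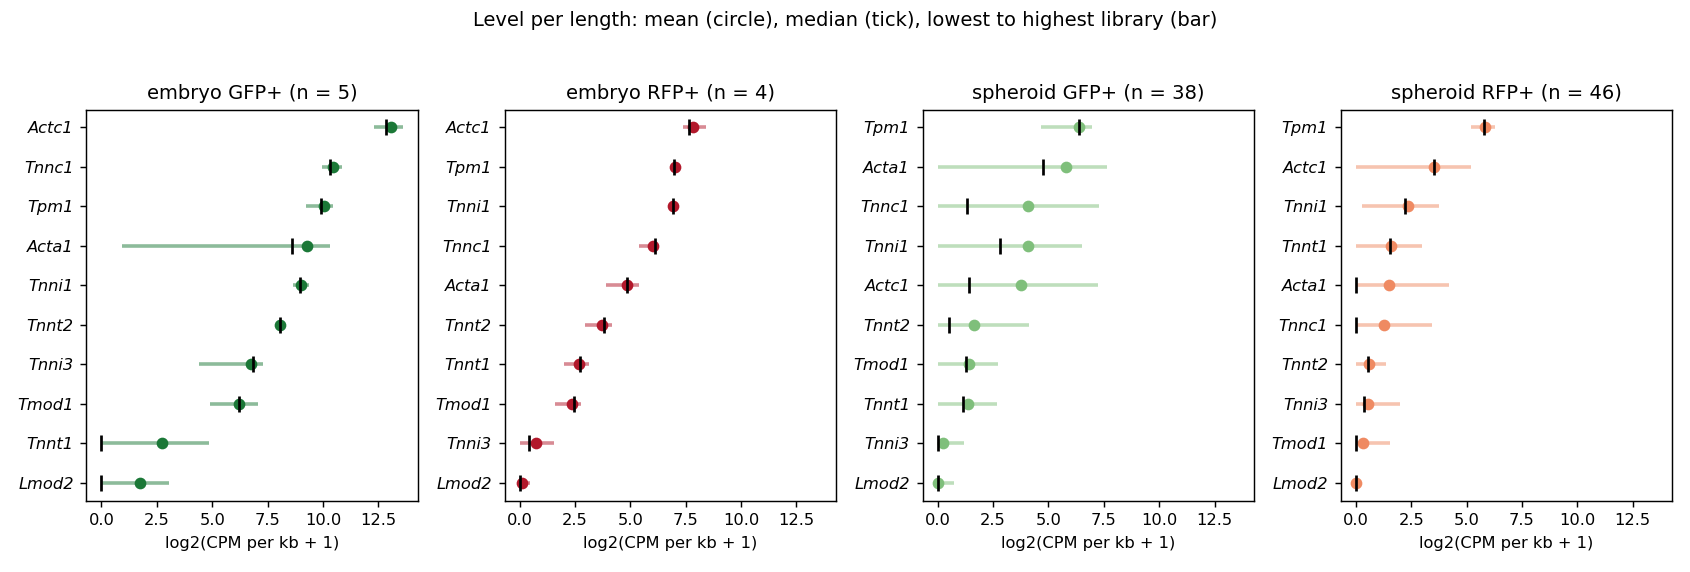
Level of each member per length, as log2(CPM per kb + 1), ordered by mean within each group; circles are means, ticks medians and bars run from the lowest to the highest library. Actc1 is at the top of both embryo groups and Tpm1 at the top of both spheroid groups, where means and medians of Tnnc1 and Actc1 in GFP+ cells lie far apart.

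The same 2 populations were compared in spheroids, where fewer members could be tested. Acta1, Tnni1 and Tpm1 were higher in GFP+ cells and Actc1 was not called. These 4 were the members that passed the filter, and Tnnt2, Tnnt1, Tnnc1, Tnni3, Tmod1 and Lmod2 did not. The background was high: 40.1% of the 9940 genes tested were called higher in GFP+ cells and 77.9% in either direction, so 3 called members of the 4 tested is no result about the members as a group.

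Acta1 was at a lowest value of 0, a median of 39.4 and a highest value of 305 CPM over the 38 GFP+ libraries. Over the 46 RFP+ libraries the same values were 0, 0 and 27.0 CPM. At 4.95 ± 0.43 on the log2 scale (SE, adjusted p = 2.5e-20) the difference of Acta1 was the largest of the 4 tested. Tnni1 ran from 0 to 323 CPM with a median of 21.9 in GFP+ cells and from 0.720 to 45.6 CPM with a median of 13.3 in RFP+ cells. It was higher in GFP+ cells by 1.94 ± 0.29 (log2, SE, adjusted p = 2.5e-09). Tpm1 ran from 159 to 805 CPM with a median of 536 in GFP+ cells, and from 230 to 491 CPM with a median of 348 in RFP+ cells. Its difference was small and steady, at 0.64 ± 0.06 (log2, SE, adjusted p = 2.5e-16). The lowest GFP+ values of Acta1, Tnni1 and Tpm1 were those of well C9, and without it they began at 2.80, 4.58 and 303 CPM.

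Actc1 gave opposite answers on different scales. In GFP+ cells its lowest, median and highest values were 0, 2.63 and 240 CPM, and in RFP+ cells they were 0, 17.0 and 57.0 CPM. Among GFP+ wells the mean was 20.0 ± 44.6 CPM (SD, n = 38), or 14.1 CPM without well G10. Among RFP+ wells it was 17.2 ± 10.7 CPM (SD, n = 46). edgeR, which compares means, gave 0.27 ± 0.38 (log2, SE, adjusted p = 0.519). The difference of mean log2(CPM + 1) was -1.43, lower in GFP+ cells (permutation test with 100000 resamples, two-sided, p = 0.00037). With plate row as a covariate the edgeR difference was -0.14. Most GFP+ wells thus had less Actc1 than most RFP+ wells, and a few had much more.

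For the members under the filter, the same permutation test on log2(CPM + 1) was used, with unadjusted p-values. Tmod1 was higher in GFP+ cells by 1.85 (p = 1e-05, the smallest this test can give), with medians of 5.50 and 0 CPM. Tnnc1 was higher by 1.09 (p = 0.0049), at 0, 1.52 and 162 CPM (lowest, median, highest) in GFP+ against 0, 0 and 10.2 CPM in RFP+ cells. Tnni3 was lower in GFP+ cells by a difference of -0.41 (p = 0.0091), where both groups lay near the limit of detection with 25 reads over all GFP+ and 67 over all RFP+ libraries. Tnnt2 did not pass, at 0.40 (p = 0.249), with medians of 3.33 and 3.49 CPM. Tnnt1 did not pass either, at -0.25 (p = 0.248), with medians of 2.67 and 4.12 CPM. Lmod2 had 2 reads in a single GFP+ library and none in 46 RFP+ libraries, where 3 reads per library would have given 2.20 CPM on average. With no filter on low counts edgeR called 7 members in spheroids, as did DESeq2: Acta1, Tnni1, Tpm1, Tnnt2, Tnnc1 and Tmod1 higher in GFP+ cells and Tnni3 higher in RFP+ cells. Over all genes these fits called 60.1% and 65.8% in either direction, so 7 of the 10 is near the background. Under no filter the log2 difference of Tnnt2 was 2.03 (adjusted p = 5.5e-06), a value that follows the mean, 16.2 CPM in GFP+ and 3.95 CPM in RFP+ cells, and not the medians.

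The spheroid GFP+ wells were uneven, and the members did not all vary together. Tnnt2 reached 62.0 to 125 CPM in 6 of the 38 wells, B9, G10, E8, C7, H7 and B11, and was at most 15.2 CPM in the others. Those 6 wells were also the 6 highest for Tnnc1, at 49.9 to 162 CPM, where the next well had 14.8 CPM. They were the 6 highest for Tnni1 too, at 163 to 323 CPM, with well G8 next at 136 CPM. Actc1 was highest in G10, G8, B11 and E8, at 240, 99.7, 91.9 and 85.3 CPM, and 5 of its 6 highest wells were among the 6. Acta1 followed another set of wells. It was at 305, 304, 297, 292, 266 and 262 CPM in E8, D11, B7, B8, F8 and D8, and only E8 of these was among the wells high in Tnnt2. Wells B7 and B8 had no Tnnt2 read at all, and D11 had 8 and F8 2 reads. In well B9, which had the highest Tnnt2, Tnnc1 and Tnni1, Acta1 was at 2.80 CPM. The 6 wells had 1261496 to 4371849 reads and lay in plate columns 7 to 11 with at least 1 in each.

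As a description across the 38 wells, Spearman's rho of CPM was 0.78 between Actc1 and Tnni1, 0.69 between Actc1 and Tnnc1, 0.63 between Actc1 and Tnnt2, 0.60 between Tnnt2 and Tnni1 and 0.47 between Tnnt2 and Tnnc1. Acta1 had 0.11 with Actc1, 0.06 with Tnnc1, 0.00 with Tnni1 and -0.11 with Tnnt2. The wells share a plate, and their total reads had rho of 0.39 with Tnnc1, 0.21 with Tnni1, 0.17 with Actc1, 0.11 with Acta1 and 0.09 with Tnnt2. In the 46 RFP+ wells the highest rho between members was 0.41, for Tnnc1 and Tnni1. Tpm1 made up a median of 83.2% of the summed member CPM per GFP+ well. The 5 other genes closest to that sum over the 38 wells were Acta2 (smooth muscle alpha-actin, rho 0.74), Nelfe (0.66), Bora (0.63), Ccdc112 (0.62) and LOC102636514 (0.61), out of 9936 genes with a median rho of 0.05. These are the highest of many values and were not tested, and high values can arise by chance among so many genes.

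**Figure D4:**
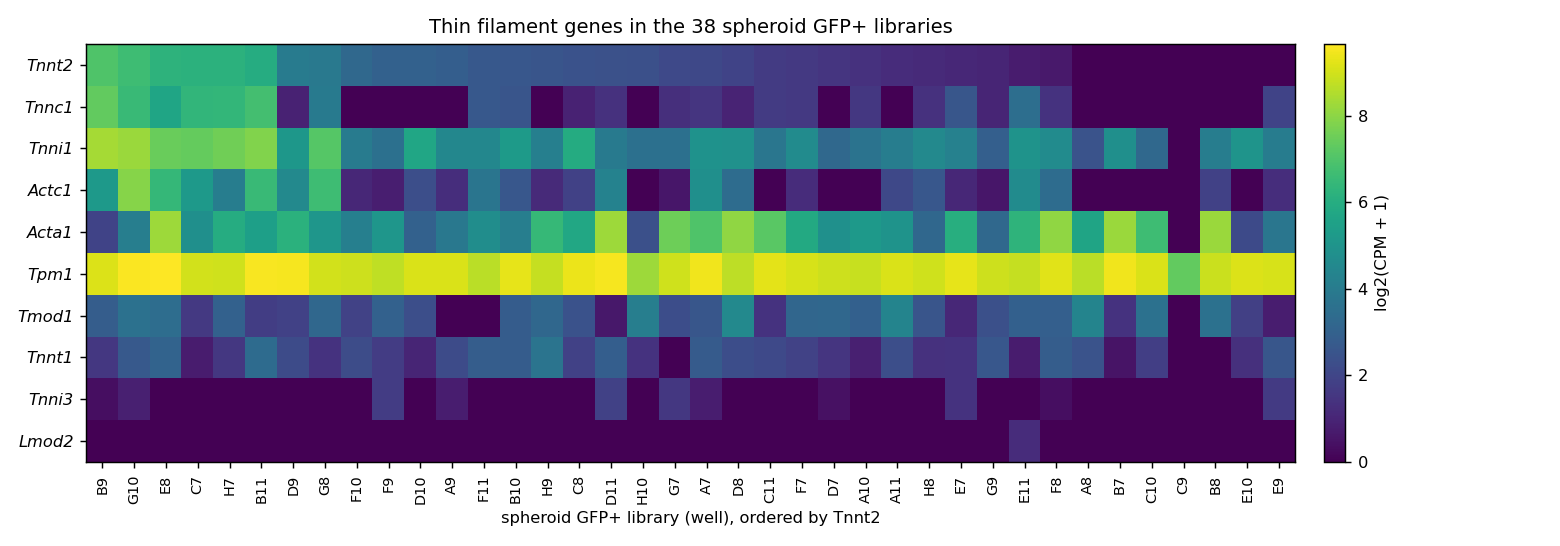
The 10 members (rows) in the 38 spheroid GFP+ libraries (columns, named by well and ordered by Tnnt2), coloured by log2(CPM + 1). The 6 wells on the left are high in Tnnt2, Tnnc1 and Tnni1 together, Acta1 is highest in other wells except E8, and Tpm1 is high throughout except in C9, the library of 6288 reads.

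Embryo cells were then set against spheroid cells of the same reporter, to compare the thin filament of the cultured and the native population. In GFP+ cells Actc1, Acta1, Tpm1, Tnnt2, Tnnt1, Tnnc1, Tnni1, Tnni3 and Tmod1 were higher in the embryo, 9 of the 9 members tested, where 19.7% of 11822 genes were called in that direction. Tnni3, at most 2.63 CPM in spheroid GFP+ libraries, could pass the filter only through the embryo libraries. For 7 members every embryo library lay above every spheroid library, as for 2.53% of all genes. In RFP+ cells the same genes other than Tnni3 were higher in the embryo, 8 of the 8 tested, against 20.1% of 11147 genes. Tnnc1 and Tmod1 had medians of 0 and at most 10.2 and 7.38 CPM in spheroid RFP+ libraries. Both could pass the filter only through the embryo libraries, so this count is partly set by the filter. For 6 members the RFP+ groups did not overlap, as for 2.17% of all genes. Source differs here together with developmental stage, culture and plate column, and these cannot be told apart. The median log2 fold change over all genes was -0.67 in GFP+ cells and -0.04 in RFP+ cells, and with DESeq2 size factors it was -0.22 and -0.01, so the GFP+ values depend on scaling by about this much. Of all genes called between GFP+ sources, 2326 of 8036 were higher in the embryo, and 3473 of 8160 with DESeq2 size factors, under which the 9 members were called in the same direction.

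Among GFP+ cells the cardiac forms differed most. Actc1 was higher in the embryo by 9.30 ± 0.82 (log2, SE, adjusted p = 7.9e-18) and Tnni3 by 8.89 ± 0.60 (adjusted p = 2.6e-23). Tnnt2 at 6.76 ± 0.82, Tnnc1 at 6.23 ± 0.96, Tmod1 at 5.36 ± 0.50 and Tnni1 at 4.87 ± 0.67 followed, then Tpm1 at 3.52 ± 0.17 and Acta1 at 3.38 ± 0.76. Even the highest spheroid GFP+ well of Tnnt2, at 125 CPM, stayed far under the lowest embryo GFP+ library at 1878 CPM. Acta1 overlapped between the groups, since well C12 of the embryo at 1.40 CPM lay below most spheroid wells. Tnnt1 was called at 1.88 ± 0.74 (log2, SE, adjusted p = 0.0091), and that call rests on embryo well B12: without it the gene did not pass the filter, and on the log2(CPM + 1) scale the difference with all libraries was -0.56 (exact permutation test, two-sided, p = 0.323).

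Among RFP+ cells the differences were closer to each other. Tnnc1 was higher in the embryo by 5.37 ± 0.77, Tnni1 by 4.88 ± 0.37, Tnnt2 by 4.61 ± 0.47, Actc1 by 4.44 ± 0.37, Tmod1 by 4.09 ± 0.87 and Acta1 by 3.91 ± 0.97 (log2, SE). Tpm1 differed by 1.25 ± 0.13 and Tnnt1 by 1.49 ± 0.62 (adjusted p = 0.027). The Tnnt1 call was lost without embryo library G12 (1.28, adjusted p = 0.128). Tnni3 did not pass the filter, and its difference on the log2(CPM + 1) scale was 0.17 (exact permutation test, two-sided, p = 0.691). Lmod2 had 1 read among embryo and none among spheroid RFP+ libraries.

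Whether the step from RFP+ to GFP+ cells itself differed between embryo and spheroid was tested for the 4 members that both fits could test. Actc1 and Tpm1 differed, against 5.68% of the 8182 genes tested. For Actc1 the GFP+ over RFP+ log2 fold change was larger in the embryo by 5.03 ± 0.47 (SE, adjusted p = 0.0084), from 5.29 against 0.27. For Tpm1 it was larger by 2.44 ± 0.24 (SE, adjusted p = 0.0084), from 3.08 against 0.64. Acta1 at -0.40 ± 1.07 and Tnni1 at 0.16 ± 0.35 were not called (adjusted p = 0.967 and 0.958), and a difference of the size of these errors would not have been detected. An interaction term in a single fit over the 4 groups, where 9 members could be tested, called 4 as larger in the embryo: Actc1, Tpm1, Tnnt2 at 2.32 (adjusted p = 0.042) and Tnni3 at 8.54 (adjusted p = 1.2e-09). Tnni3, at most 6.20 CPM in the other 3 groups, could pass the filter of this fit only through the embryo GFP+ libraries. The fit called 17.1% of 12655 genes as larger in the embryo and 54.4% in either direction.

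The choice between paired forms was measured as a share within each library, per exonic length, in libraries with at least 20 reads of the pair. There were 9 such tests, and p-values adjusted over them stand beside the raw ones. Acta1 made up 5.39% ± 4.05 (SD, n = 5) of the striated actin pair in embryo GFP+ cells and 10.7% ± 4.01 (SD, n = 4) in embryo RFP+ cells, a difference of -5.28 points that did not pass (exact permutation test, p = 0.0952, adjusted 0.0952). In spheroid GFP+ cells the share was 80.7% ± 27.1 (SD, n = 33), with a median of 94.2%, and exceeded 50% in 28 of the 33 libraries. Spheroid RFP+ cells had 13.4% ± 23.5 (SD, n = 32), with a median of 0 and 3 libraries over 50%. Those were C2, E3 and E4, of which E3 and E4 are a near-identical pair (r = 0.989). The spheroid populations differed by 67.4 percentage points (permutation test, p = 1e-05, the smallest it can give, adjusted 6.3e-05). With each near-identical pair summed the difference was 69.2 points (permutation test, p = 1e-05, n = 33 and 27). Embryo GFP+ cells differed from spheroid GFP+ cells by -75.3 points (exact permutation test, p = 1.4e-05, adjusted 6.3e-05). Within this pair, spheroid GFP+ wells therefore held mostly the skeletal actin, where the embryo GFP+ cells and both RFP+ groups held mostly the cardiac actin. Other actins are outside the share, and in embryo RFP+ cells Acta2, smooth muscle alpha-actin, had a mean of 534 CPM against 366 CPM for Actc1.

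**Figure D5:**
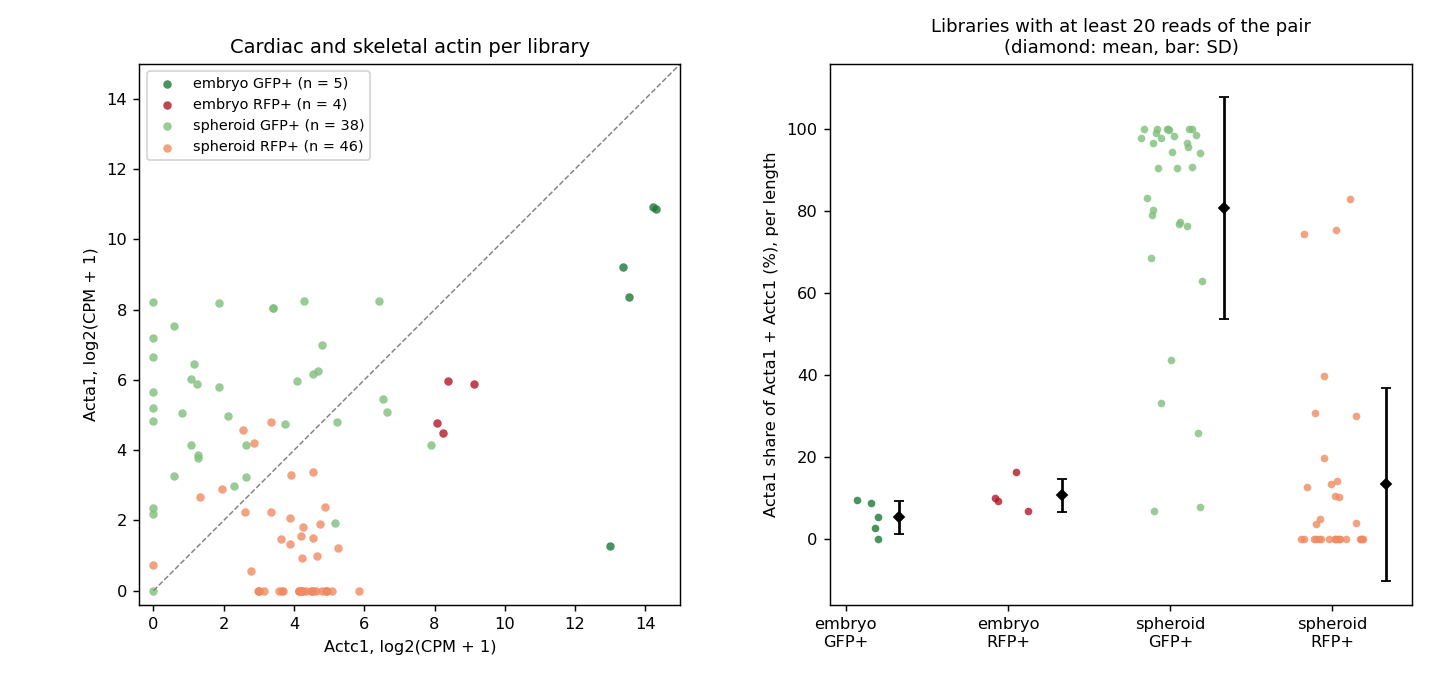
Left, Acta1 against Actc1 in every library as log2(CPM + 1), with a dashed line where both are equal; right, the Acta1 share of the pair per length in libraries with at least 20 reads of it, with mean and SD. Embryo libraries lie below the line, most spheroid GFP+ libraries above it, and their mean share of 80.7% stands against 13.4% in spheroid RFP+ libraries.

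Tnni3 made up 16.1% ± 6.65 of the troponin I pair in embryo GFP+ cells (SD, n = 5), from 4.84% to 22.2%, and 0.577% ± 0.857 in embryo RFP+ cells (SD, n = 4; exact permutation test, p = 0.0159, adjusted 0.0238). In spheroid GFP+ cells it made up 3.22% ± 7.02 (SD, n = 31), less than in embryo GFP+ cells (exact permutation test, p = 0.00218, adjusted 0.00653). Spheroid RFP+ cells had 7.85% ± 11.7 (SD, n = 24), and the spheroid populations did not differ at 20 reads per pair (permutation test, p = 0.0731, adjusted 0.0822). Tnnt1 made up 1.80% ± 3.98 of the troponin T pair in embryo GFP+ cells (SD, n = 5), with 8.91% in well B12, and 32.2% ± 15.9 in embryo RFP+ cells (SD, n = 4; exact permutation test, p = 0.00794, adjusted 0.0179). Without division by length these shares were 0.545% and 12.8% (exact permutation test, p = 0.00794). The merged exons span 7752 bases in Tnnt2 and 2204 in Tnnt1, so division by length raises the share of Tnnt1. Embryo GFP+ cells also had less of it than spheroid GFP+ cells (exact permutation test, -42.7 points, p = 0.0119, adjusted 0.0214), by a size that moved with the minimum of reads, from -54.4 points at 10 reads to -13.96 points at 50, and was -27.3 points without division by length. The spheroid shares rested on few libraries, 44.5% ± 33.7 over 13 GFP+ and 70.3% ± 26.2 over 11 RFP+ libraries (SD), and their difference did not pass at 20 reads per pair (permutation test, p = 0.0522, adjusted 0.0671). Without division by length the spheroid shares of Tnnt1 were 27.9% in GFP+ and 47.4% in RFP+ libraries. With at least 10 reads of a pair both spheroid differences passed, at -6.82 points for Tnni3 (permutation test, p = 0.0148) and -19.7 points for Tnnt1 (permutation test, p = 0.013). With at least 50 reads the Tnni3 difference was -2.51 points (exact permutation test, p = 0.133), and without division by length neither passed (permutation test, p = 0.0772 for Tnni3 and p = 0.0857 for Tnnt1).

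Other genes of the sarcomere were counted from lists. Some genes are in more than 1 list. Acta1 is also in the skeletal muscle list, and Tnnt3 and Tnni2 are in the further thin filament and the skeletal muscle lists. Acta2 and Actg2 are in the further thin filament and the smooth muscle lists, and Isl1 in the cardiac factor and the SHF lists. Over all genes tested in the embryo, 330 of 8503 were called for GFP+ and 528 for RFP+ cells. In spheroids 3985 of 9940 were called for GFP+ and 3762 for RFP+ cells, so spheroid counts are no results about a list. Between sources 2326 of 11822 were higher in embryo GFP+ and 5710 in spheroid GFP+ cells. For RFP+ cells 2241 of 11147 were higher in the embryo and 2504 in spheroids. Of 22 further thin filament genes 18 were tested in the embryo, of which 6 were called for GFP+ and 2 for RFP+ cells, with Xirp1, an actin-binding repeat protein (5.57 ± 1.36, log2, SE, adjusted p = 0.058), and Fhod3, a formin of the sarcomere (4.74 ± 1.03, adjusted p = 0.029), moving most. Xirp1 and Fhod3, at most 4.10 and 5.84 CPM in embryo RFP+ libraries, could pass the filter only through the GFP+ libraries. The 2 that were higher in RFP+ cells were the cytoplasmic actins Actb (-0.59, adjusted p = 0.080) and Actg1 (-0.87, adjusted p = 0.023), named after their values were seen. In spheroids 12 of the 22 were tested, 3 higher in GFP+ cells, led by Acta2 (2.44 ± 0.35, adjusted p = 1.1e-09) and Neb, nebulin (2.31 ± 0.21, adjusted p = 4.1e-18), and 7 higher in RFP+ cells. Neb went the other way between sources, at 25.0 ± 15.5 CPM in spheroid GFP+ (SD, n = 38) and 0.204 ± 0.457 CPM in embryo GFP+ cells (SD, n = 5). From embryo to spheroid, 12 of 17 were higher in embryo GFP+ and 4 in spheroid GFP+ cells, and 8 of 13 were higher in embryo RFP+ and 2 in spheroid RFP+ cells. The test of the difference called 2 of 11, 1 in each direction, against 5.68% of all genes.

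Thick filament genes, the myosins and their binding proteins, were tested for 9 of 10 in the embryo, and 8 were higher in GFP+ cells, led by Myh6, the alpha heavy chain (7.20 ± 0.39, adjusted p = 5.3e-06), and Mybpc3 (5.31 ± 0.90, adjusted p = 0.010). In spheroids only Myl7, the atrial light chain, could be tested, and it was called higher in GFP+ cells (1.44 ± 0.48, adjusted p = 0.0052), by its mean of 42.3 against 16.4 CPM, whereas its median was 1.99 CPM in GFP+ and 6.81 CPM in RFP+ cells. Z-disc, titin and chaperone genes were called higher in GFP+ cells for 9 of 9 tested in the embryo, with Hspb7 (8.29 ± 1.38, adjusted p = 0.0044) and Actn2, alpha-actinin (7.31 ± 0.93, adjusted p = 0.0018), in front. Hspb7, at most 1.46 CPM in embryo RFP+ libraries, could pass the filter only through the GFP+ libraries. The same holds for Actn2, Myh6 and Mybpc3, whose lowest embryo RFP+ values were 0, 2.19 and 0 CPM. Counts of these lists in the embryo and between sources are thus partly set by the filter. Of the Z-disc list 3 of 3 were higher in spheroid GFP+ cells, among them Ttn, titin (3.31 ± 0.36, adjusted p = 1.7e-14), and Unc45b, a myosin chaperone (3.26 ± 0.36, adjusted p = 1.1e-14). Over all genes 3.88% were called higher in GFP+ cells in the embryo and 40.1% in spheroids. The spheroid counts of these lists are therefore no results about them. Against spheroid cells, 8 of 8 thick filament and 9 of 9 Z-disc genes were higher in embryo GFP+ cells, and 6 of 6 and 4 of 4 in embryo RFP+ cells. Over all genes 19.7% and 20.1% were called in these directions. The difference between sources was called for 1 of 1 thick filament gene and for 0 of 3 Z-disc genes, against 5.68% of all genes. Cardiac transcription factors were higher in GFP+ cells for 5 of 12 tested in the embryo, led by Tbx5 (7.80 ± 1.01, adjusted p = 0.0012) and Tbx20 (7.32 ± 0.50, adjusted p = 2.1e-05). Both, at most 1.46 and 6.57 CPM in embryo RFP+ libraries, could pass the filter only through the GFP+ libraries. In spheroids 6 of 9 were higher in GFP+ cells, led by Hand1 (4.39 ± 0.39, adjusted p = 2.2e-19) and Hand2 (4.24 ± 0.32, adjusted p = 3.1e-24), and 1 in RFP+ cells. The GFP+ count again stands against 40.1% of all genes. Between sources 11 of 13 were higher in embryo GFP+ and 6 of 10 in embryo RFP+ cells, and the difference was called for 2 of 8.

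Markers of other cell types moved with the groups too, and their part in the member results was not tested. Over all genes tested in the embryo, 330 of 8503 were called for GFP+ and 528 for RFP+ cells. In spheroids these were 3985 and 3762 of 9940, so the spheroid counts below are no results about the marker lists. Smooth muscle markers, of which Acta2 and Tagln are also used by early myocardium, summed to 4542 to 10565 CPM in embryo GFP+, 489 to 1033 in embryo RFP+, 0 to 413 in spheroid GFP+ and 7.99 to 58.9 CPM in spheroid RFP+ libraries, and 3 of 5 tested were higher in embryo GFP+ than embryo RFP+ cells. Of the skeletal muscle markers Myod1, Myf5, Myf6, Myog and Ckm had no read in embryo GFP+ cells, whereas Tnnt3, fast skeletal troponin T, was at 58.5 ± 59.2 CPM (SD, n = 5), and of 4 tested Acta1 alone was called between the embryo groups. In spheroids Acta1 was called higher in GFP+ and Tnnt3 in RFP+ cells (-2.24 ± 0.29, adjusted p = 8.1e-11), of 3 tested. Of the SHF markers 2 of 5 tested in the embryo and 5 of 6 tested in spheroids were higher in RFP+ cells, and 0 and 1 were higher in GFP+ cells. Endoderm markers summed to 269 to 665 CPM in spheroid GFP+ and 42.7 to 242 CPM in spheroid RFP+ libraries, and 3 of 4 tested were higher in spheroid GFP+ cells, led by Epcam, an epithelial adhesion gene (2.13 ± 0.13, adjusted p = 6.0e-29). The other, Foxa2, an endoderm transcription factor, was higher in spheroid RFP+ cells (-1.88 ± 0.37, adjusted p = 3.9e-06). The sum followed Cldn6, Epcam and Cdh1, at means of 166, 127 and 92.2 CPM in spheroid GFP+ cells. Sox17, Foxa2, Apoa1 and Ttr had means of only 1.27, 2.26, 0.376 and 0.485 CPM there. The endoderm markers summed to at most 20.3 CPM in embryo GFP+ cells, where 6 of the 7 had no read, and to 10.8 to 670 CPM in embryo RFP+ cells. Pluripotency markers summed to 44.6 to 1522 CPM in spheroid GFP+ and 7.03 to 549 CPM in spheroid RFP+ libraries, with 4 of 5 tested higher in GFP+ cells, and to at most 0.396 CPM in embryo GFP+ and 8.03 CPM in embryo RFP+ libraries. Endothelial markers summed to at most 101, 219, 46.0 and 108 CPM in the 4 groups in the same order as the smooth muscle markers, and blood markers to at most 1.09, 1156, 12.2 and 12.6 CPM.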

How the data were processed

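The authors trimmed reads with Trimmomatic 0.36, aligned them to mm10 with HISAT2 2.0.4 and counted them per gene with featureCounts 1.5.2, by their methods and processing notes, and deposited whole-number counts without normalization for 93 libraries. Strand and multimapping settings are not given in the sources used here. Of the 24514 symbols, 2645 had no count. Reads carry no molecular identifiers, so limits from counts cover counting error only.

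CPM used total counts, and per-kb levels the merged exons of GENCODE M21. Fold changes came from edgeR 4.0.16 in R 4.3.3 on all genes kept by filterByExpr (minimum count 10, minimum total 15, minimum proportion 0.7), with TMM, trended dispersions, the quasi-likelihood F-test and Benjamini-Hochberg adjustment over all genes tested. A gene was called at an adjusted p under 0.1. A gene with hardly any reads in a group could pass the filter only through the other. Counts of called genes among those tested are thus partly set by the filter. Standard errors came from the Fisher information and the quasi-likelihood dispersion. The difference of fold changes used separate fits and 7 degrees of freedom. Members under the filter, and as a later addition all members, were tested by permutation of log2(CPM + 1), two-sided. The scripts were tested on simulated data.

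Members and gene lists were chosen with earlier results of these data known. Named genes of other lists are the 2 called with the largest absolute fold change, and Hcn4 and Tbx1 check the labels. The genes closest to the members are the 5 with the highest rho. Alternatives covered DESeq2 1.42.0, other size factors, filters and thresholds, plate row, pair minimums, summed wells and left-out libraries. Protein sequences were not analysed here. Groups follow the sample titles.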

Additional observations from a re-analysis of the deposited data

Results flagged for a closer look

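Tnnt1 in embryo GFP+ well B12, at 61.0 CPM, stood apart from the other 4 libraries of its group, which had 0 to 0.441 CPM. Lmod2 in embryo RFP+ well F12, at 0.730 CPM, stood apart in the same way, but this is 1 read beside 3 libraries without any. Both come from Dixon's ratio at its 95% limit, which chance passes in about 1 of 20 groups, over the 10 members in both embryo groups. The GFP+ over RFP+ log2 fold change differed between embryo and spheroid by 5.03 for Actc1 and by 2.44 for Tpm1 (embryo minus spheroid, test of the difference itself), larger in the embryo for both. Both genes were higher in each of the 5 embryo GFP+ libraries than in any of the 4 embryo RFP+ libraries.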

How the results depend on the processing

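Counts of called members moved in 2 comparisons: in spheroids from 3 to 7 with DESeq2 and to 7 with no filter on low counts, where more genes are tested, and for the difference between sources from 2 to 4 with an interaction term in 1 fit, which tests 9 members in place of 4. All other settings kept each count of called members within 1.5 times, including leaving out each embryo library, where the counts ran from 7 to 8 (embryo GFP+ against RFP+), 8 to 9 (GFP+ between sources), 7 to 8 (RFP+ between sources) and 2 to 2 (the difference). DESeq2 gave no adjusted p for Tnnt1 in the embryo and between GFP+ sources, nor for Lmod2 in spheroids and between RFP+ sources. On the log2(CPM + 1) scale with a permutation test, added after seeing the data, Actc1 between the spheroid populations reversed to -1.43 and Tnnt1 between the GFP+ sources to -0.56, and Tnnt1 in the embryo, not called either way, went from 0.12 to -2.35. Of the share tests, the 2 spheroid comparisons near the threshold passed 0.05 under other settings: the Tnni3 share differed by -6.82 points with at least 10 reads of the pair and by -5.67 with the near-identical wells summed, and the Tnnt1 share by -19.7 and -26.6 points. They did not pass without division by length, nor did Tnni3 with at least 50 reads (-2.51). The cause was not tested. Over all genes, called counts changed most for the difference between sources, from 465 to 6889 with the interaction term and 267 without G11 to 706 without B12, and in the embryo from 858 to 1936 with DESeq2 and 2000 with no filter. In spheroids no filter gave 13109 calls in place of 7747. Between GFP+ sources, 2326 of 8036 calls were higher in the embryo, and 3473 of 8160 with DESeq2 size factors. Depth limits Tnni3 outside embryo GFP+ cells, with 7, 25 and 67 reads in all in embryo RFP+, spheroid GFP+ and spheroid RFP+ cells, and Lmod2, with 1, 2 and 0 reads. No paired analysis was possible because the labels give the groups no shared replicate numbers, but plate row, which spheroid wells of both populations share, was tried as a covariate and left 3 members called.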
